A study of Mus musculus with 10 samples.

Results

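The comparison described here sets lungs of mice given the compound SQ-diEG against lungs of mice given dacarbazine (DTIC), all injected with B16F10 melanoma cells. It rests on 6 of the 10 arrays of the study, chosen by their titles: 2 arrays from mice on 70 mg/kg DTIC daily, 2 from mice on 5 mg/kg and 2 from mice on 25 mg/kg daily of SQ-diEG. The study divided 40 male C57BL/6J mice, 6 weeks old, into 5 groups of 8 and treated them for 20 days, and each group is represented by 2 arrays of total lung RNA. One protocol text has years in place of weeks, taken here as an error. The remaining 4 arrays, from uninjected and from B16F10-injected mice given water, did not enter the fit. In the text, values of the injected water mice are given for some genes, only as levels beside those of the treated mice. These genes are a selection, so nothing is read from the side on which the water arrays lie. The route of injection is not given in the sources used here, nor is it stated if the RNA on an array came from 1 mouse or from a pool. The p-values therefore reflect differences between arrays that may be no more than technical. The doses of DTIC and SQ-diEG differ, so the comparison is of regimens and not of compounds at a matched dose.

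DTIC is a prodrug used against melanoma. Cytochrome P450 enzymes, mainly in the liver, turn it into a species that adds methyl groups to DNA, and methylated guanine is restored by the repair protein Mgmt or, if it is left in place, is met by the mismatch repair system during replication, which can lead to p53 activation and cell death. B16F10 is a mouse melanoma line of C57BL/6 origin selected for forming colonies in the lung, where pigment genes such as Pmel, Tyr and Dct mark its cells. Of SQ-diEG only the name is used, and nothing is said of its structure.

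No gene passed the test in this comparison. Of 19572 non-control probe sets with exactly 1 gene symbol, which stood for 19505 genes, 17392 genes reached the 40th percentile of their array on at least 2 of the 6 arrays and were tested. With limma and Benjamini-Hochberg adjustment over all of these genes, 0 (0%) had an adjusted p under 0.05, the smallest adjusted p was 0.522, and 819 genes (4.71%) had an unadjusted p under 0.05, 316 higher and 503 lower with SQ-diEG. The SQ-diEG mean was the higher one for 8650 genes (49.7%), and the median log2 difference over all genes tested was -0.0061. A 95% interval for a single gene, without adjustment, reached a median of 1.71 log2 units to either side of its estimate. Differences smaller than that could not be told from 0 for a typical gene. Larger ones did not pass the adjusted test either, and the extremes were -3.72 and 3.71.

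**Figure D1:**
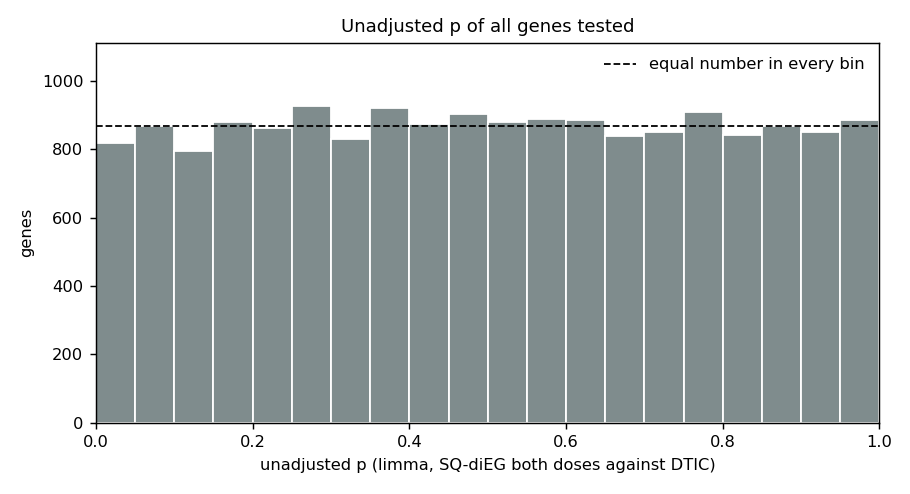
Number of genes (vertical axis) in each bin of unadjusted p (horizontal axis) for SQ-diEG at both doses against DTIC, with a dashed line at the number an equal filling would give. The bins hold 796 to 927 genes, the lowest bin holds 819, and the line lies at 869.6.

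The levels behind these tests lay mostly at the level of the array's own negative controls. On the 6 arrays the median of the 19572 probe sets with a gene symbol was 7.33 to 7.40 on the deposited log2 scale. The median of the 5222 negative-control probe sets was 7.63 to 7.68. Their 95th percentile, used here as the mark of a level above background, was 10.73 to 11.05. Only 57 to 88 of the probe sets with a gene symbol (0.291 to 0.450%) exceeded that mark on an array. Across genes, the 3 pairs of arrays of the same treatment correlated at a Pearson r of 0.124 to 0.191 and the 8 pairs of an SQ-diEG with a DTIC array at 0.125 to 0.193, so arrays of one treatment were no more alike than arrays of both treatments. The mean of the 4 hybridization controls ran from 9.10 to 10.92, with 9.22 and 10.28 on the DTIC arrays, and its part in any difference below was not tested beyond the fit that holds it as a covariate. The probe set identifiers have the form of a whole-transcript array whereas the protocols describe a 3' labelling kit, and what that does to the levels was not tested. With the low correlations, the levels at background and the markers given next, it is in doubt whether these values report lung expression at all, and every gene level below is a deposited array value read with that doubt.

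The tissue label was set against 24 marker genes of lung, blood and pigment cells, and 0 of them exceeded the negative-control mark on any of the 6 arrays. Their mean levels with DTIC and with SQ-diEG overlapped for alveolar epithelium (7.52 to 7.59 against 7.34 to 8.48), endothelium (7.30 to 8.17 against 6.83 to 8.63), fibroblasts (7.34 to 7.65 against 7.11 to 8.10), leucocytes (7.31 to 7.93 against 7.73 to 8.80) and pigment cells (7.15 to 7.37 against 6.89 to 8.36). The mean of the club cell markers Scgb1a1 and Scgb3a2 was 6.70 to 7.13 with DTIC and 7.67 to 9.14 with SQ-diEG, but only Scgb1a1 stood apart, by 2.43. Scgb3a2 differed by 0.078, at 8.13 and 7.41 with DTIC against 8.29, 8.82, 6.88 and 7.41 with SQ-diEG. The defining markers of every cell type were thus at background level, and the cell makeup of these lungs could not be read from them. In such bulk samples, fewer cells of a type and less RNA per cell cannot be told apart.

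**Figure D2:**
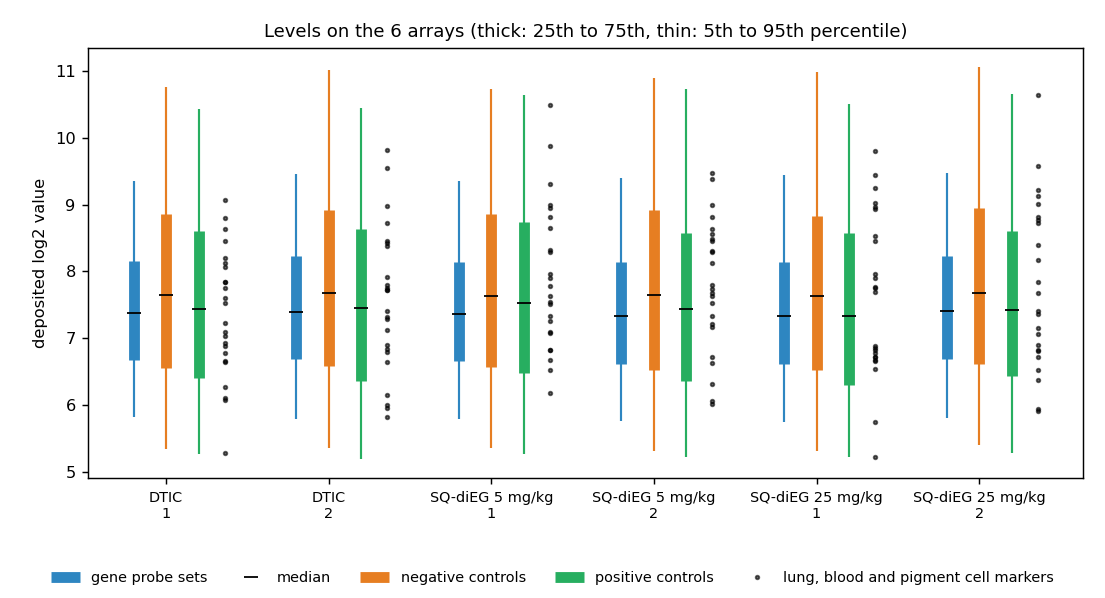
Deposited log2 values (vertical axis) on the 6 arrays for gene probe sets, negative controls and positive controls, with the 25th to 75th percentile as a thick bar, the 5th to 95th as a thin line and the median as a black dash, beside the single values of the marker genes. The gene probe set medians of 7.33 to 7.40 lie under the negative-control medians of 7.63 to 7.68, and no marker point exceeds its array's 95th percentile of negative controls.

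The genes at the head of the ranking with SQ-diEG above DTIC came from unrelated functions. Clec4a1, a C-type lectin receptor of myeloid cells, was 5.66 and 6.22 with DTIC, 9.25 and 10.16 with SQ-diEG at 5 mg/kg and 8.94 and 10.22 at 25 mg/kg. All 4 SQ-diEG arrays lay above both DTIC arrays, with means of 9.64 ± 0.65 (SD, n = 4) and 5.94 ± 0.40 (SD, n = 2). They differed by 3.71 log2 units (SE 0.84) at a limma Benjamini-Hochberg adjusted p of 0.522. For this gene the injected water arrays, at 8.49 and 7.82, lay between the groups, and the uninjected ones had 6.00 and 7.65. None of the 6 values reached the negative-control mark, and the DTIC mean lay below the mean of the background probe sets, 7.20.

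Nfyc, a subunit of the CCAAT-binding factor NF-Y, was 4.83 and 6.35 with DTIC, 7.24 and 7.81 with the low dose and 9.12 and 10.85 with the high dose of SQ-diEG. The difference of both doses from DTIC was 3.17 (SE 0.86, limma adjusted p = 0.939), and Nfyc was the 1 gene of the 16 leading ones whose doses differed from each other at an unadjusted p under 0.05, by 2.46 (SE 0.99, limma adjusted p = 0.936). Rps27l, a p53-inducible relative of a ribosomal protein, was 6.70 and 5.82 with DTIC against 9.71, 7.95, 9.37 and 10.30 with SQ-diEG, a difference of 3.08 (SE 0.85). Its injected water values of 10.13 and 8.38 lay within the range of the SQ-diEG arrays.

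The other 5 leading genes of this direction were Grik2, a kainate receptor subunit, Olfr1298, an olfactory receptor, Ctps, the enzyme that makes CTP, Wscd2, and Scgb2b17, a secretoglobin. Their differences ran from 2.71 (Scgb2b17) to 2.99 (Grik2) with limma adjusted p of 0.939 or 0.996. Ctps, for example, was 5.69 and 5.08 with DTIC against 8.21, 8.76, 8.70 and 7.29 with SQ-diEG. The injected water arrays lay below all SQ-diEG arrays for Grik2 (7.37 and 5.13) and Olfr1298 (6.62 and 5.97). They had 7.21 and 8.12 for Ctps, 9.25 and 4.93 for Wscd2 and 9.11 and 8.46 for Scgb2b17. In each of the 8 genes the DTIC mean lay below the mean of the background probe sets.

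In the opposite direction the ranking began with Olfr830, an olfactory receptor gene, at 11.00 and 10.44 with DTIC, 7.39 and 7.91 with the low and 5.99 and 6.71 with the high dose of SQ-diEG. The groups did not overlap, and the difference was -3.72 (SE 0.83, 95% interval -5.40 to -2.04, limma adjusted p = 0.522). Injected mice given water had 7.81, within the range of the SQ-diEG arrays, and 8.53, between the groups. Genes ranked by a contrast with 2 DTIC arrays tend to have extreme DTIC values by that choice, so the water values do not assign a difference to either treatment. Against DTIC the high dose alone gave -4.37 with a limma adjusted p of 0.439, shared with Nfyc as the smallest in that contrast.

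Tmbim6, known as Bax inhibitor 1 and a guard against cell death at the endoplasmic reticulum, was 10.71 and 10.19 with DTIC against 7.78, 7.33, 7.71 and 6.38 with SQ-diEG. Magel2, an imprinted gene of the MAGE family, was 9.70 and 10.06 against 6.48, 6.97, 6.57 and 6.83, a difference of -3.16 (SE 0.83) with a spread of only 0.23 (SD, n = 4) over the SQ-diEG arrays. Pik3cb, a catalytic subunit of PI3-kinase, was 10.10 and 10.18 against 7.31, 5.92, 6.21 and 8.08. In all 3 genes the DTIC arrays stood above all SQ-diEG arrays. The limma adjusted p was 0.939 for each.

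Cetn2, a centrin of centrioles that is also part of the Xpc damage sensor complex, was 11.08 and 8.99 with DTIC against 6.60, 6.06, 8.37 and 6.65 with SQ-diEG. Zfp729a, a zinc finger gene, Olfr194, an olfactory receptor, and Rtkn complete the 8 genes, with differences of -3.34, -3.30 and -3.10. In 6 of these 8 genes the SQ-diEG mean lay below the mean of the background probe sets. All 16 leading genes had groups without overlap, a feature of 2293 genes (13.2%) of those tested, 1128 (6.49%) with SQ-diEG higher and 1165 (6.7%) with SQ-diEG lower. Since the genes were ranked by this same contrast, nothing is read from that count. Of the 16 genes, 4 exceeded the negative-control mark: Olfr830, Olfr194, Rtkn and Cetn2. Each did so only on the first DTIC array, whose mark was 10.76 beside 11.01 on the second. A two-sided exact permutation test of 2 against 4 arrays cannot give a p below 0.133.

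**Figure D3:**
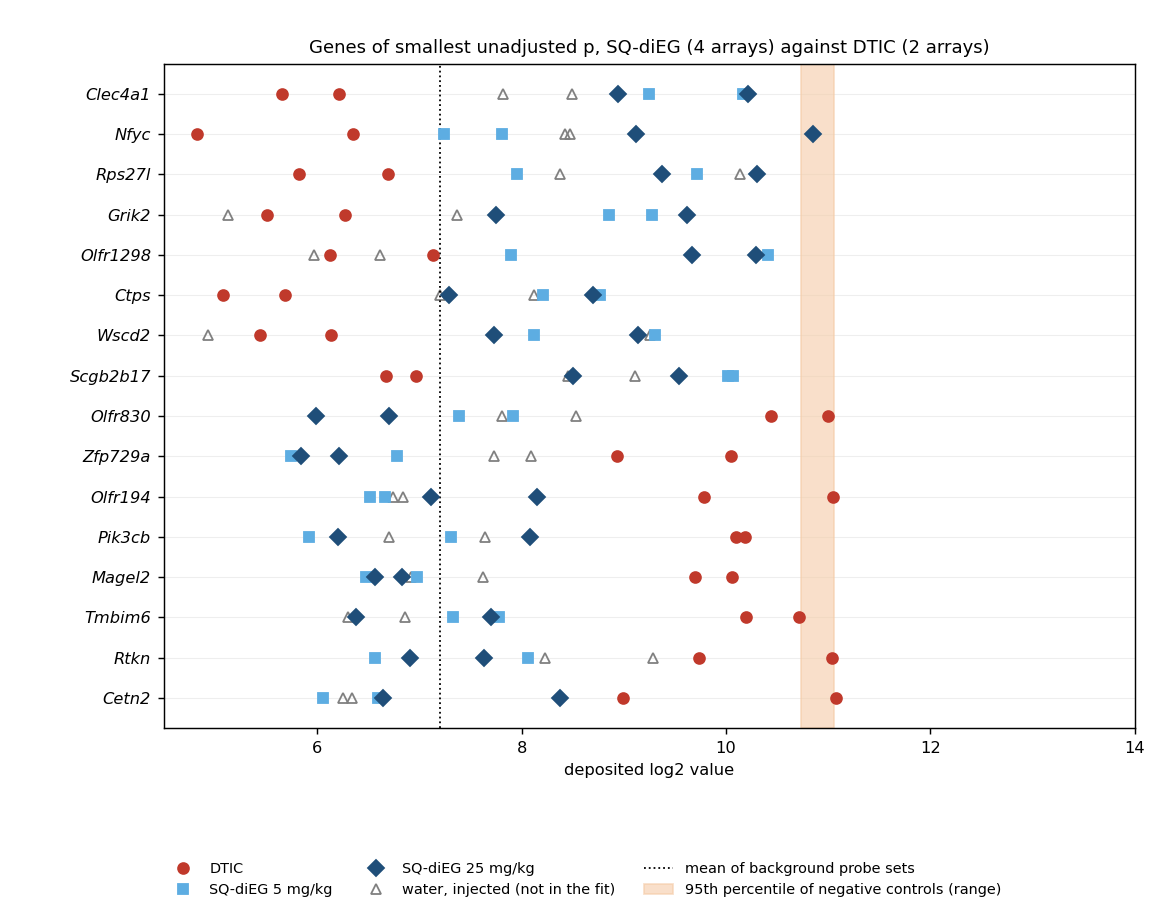
Deposited log2 value (horizontal axis) on each array for the 16 genes of smallest unadjusted p, 8 in each direction, with DTIC as circles, SQ-diEG as squares (5 mg/kg) and diamonds (25 mg/kg) and injected water as open triangles. A dotted line marks the background probe sets at 7.20 and a band the negative-control 95th percentiles of 10.73 to 11.05. Of the 16 genes, 4 exceed the percentile of the same array, each only on the first DTIC array.

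Few genes were above background throughout. Of the 17392 genes, 17076 exceeded the negative-control mark on none of the 6 arrays, and 3 did so on all: Pold2, Tchp and Gm20854. Pold2, a subunit of the replicative and repair DNA polymerase delta, was 12.71 and 11.39 with DTIC and 11.21, 12.68, 13.08 and 13.30 with SQ-diEG, a difference of 0.52 (SE 0.85). Tchp, a centriolar protein that binds keratin filaments, was 10.86 and 12.44 against 11.40, 11.12, 11.46 and 13.00, a difference of 0.10 (SE 0.85). In both genes the groups overlapped, the limma adjusted p was 0.996 and 0.999, and the sign turned without 1 DTIC array (Pold2 -0.14 without the second, Tchp -0.70 without the first).

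The abundant chromatin protein Hmgb1, named here after its values were seen, was the 1 gene above the mark on all 4 SQ-diEG arrays and on neither DTIC array. It was 9.59 and 8.97 with DTIC against 11.66, 11.55, 11.94 and 12.02 with SQ-diEG, a difference of 2.51 (SE 0.83, 95% interval 0.84 to 4.18, limma adjusted p = 0.996), and the injected water arrays had 11.89 and 12.15. The chromatin genes Cbx3 and Ptma differed by 1.23 (SE 0.89) and 1.63 (SE 0.85), with overlapping groups for Cbx3, whose DTIC arrays lay at 8.66 and 11.51 and whose difference was -0.20 without the first of them. Conversely, 3 genes exceeded the mark on both DTIC arrays and on no SQ-diEG array: Ypel1, Stac3, an adaptor of muscle excitation, and Zfp987, a zinc finger gene. Zfp987 was 11.47 and 11.06 with DTIC against 6.91, 7.78, 9.79 and 9.95 with SQ-diEG. Stac3 was 10.83 and 11.18 against 8.24, 10.52, 9.80 and 10.40. Ypel1 was 10.77 and 11.54 against 10.43, 10.71, 7.32 and 10.91, so its groups overlapped. The mark differs between arrays, at 10.76 on the first DTIC array and 11.05 on the second high-dose array. For Ypel1 the split by the mark is therefore not a split by level.

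The genes that a methylating drug could be asked about were taken by role, from lists that held 842 genes in 28 groups. Of these, 730 were on the array and 645 were tested. Of the 645, 0 passed the test, 38 (5.89%, beside 4.71% of all genes) had an unadjusted p under 0.05, and 95 (14.7%, beside 13.2%) had groups without overlap. SQ-diEG was higher for 327 (50.7%, beside 49.7%). The list of 15 mitochondrially encoded genes had no member among the named probe sets. No listed gene was above the negative-control mark on all 6 arrays, and 12 were above it on at least 1. The sign of the median turned under at least 1 alternative setting for 19 of the 27 measured lists, so the counts below describe these arrays and name no direction of a list.

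Among 24 tested enzymes that activate or detoxify drugs, 13 were higher and 11 lower with SQ-diEG, with a median difference of 0.27, and 1 had an unadjusted p under 0.05. That gene was Cyp2f2, a cytochrome P450 of club cells, at 9.16 and 8.74 with DTIC against 7.83, 6.53, 6.85 and 6.63 with SQ-diEG. Its difference was -1.99 (SE 0.84, limma adjusted p = 0.996), opposite in direction to that of the club cell marker Scgb1a1 given below, and the injected water arrays had 6.53 and 6.50.

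The 20 tested genes of direct reversal, base excision and mismatch repair were 10 higher and 10 lower, with a median of 0.05 and 0 at an unadjusted p under 0.05. Mgmt, the protein that takes methyl groups off guanine, was 6.76 and 7.75 with DTIC and 7.29, 8.64, 7.53 and 7.26 with SQ-diEG. The groups overlapped, and the difference was 0.43 (SE 0.84, 95% interval -1.27 to 2.12), or -0.071 without the first DTIC array. Msh6, a mismatch recognition protein, was 8.16 and 8.45 against 6.31, 7.16, 7.53 and 7.84, with every SQ-diEG array below both DTIC arrays and a difference of -1.09. Exo1, the nuclease that follows mismatch recognition, differed by 1.48 with overlapping groups.

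Of 26 tested genes of nucleotide excision and crosslink repair, 14 were higher and 12 lower, with a median of 0.06. Xpc, the sensor of helix-distorting lesions, was 5.71 and 6.28 with DTIC, 8.28 and 8.14 with the low and 6.52 and 6.42 with the high dose of SQ-diEG. The difference was 1.34 (SE 0.83, limma adjusted p = 0.996), and the injected water arrays, at 9.13 and 10.09, lay above all 6. Atr, the kinase that answers stalled replication, was 8.54 and 8.58 against 6.85, 6.35, 7.93 and 7.41, a difference of -1.42. Fancc of the Fanconi complex differed by 1.24.

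The p53 response did not move one way. Of its 26 tested genes, 11 were higher and 15 lower with SQ-diEG, with a median of -0.15, and 2 had an unadjusted p under 0.05, 1 in each direction. Cdkn1a, the p21 inhibitor of the cell cycle, was 6.02 and 10.04 with DTIC, a gap that held all 4 SQ-diEG values of 7.99, 7.60, 7.20 and 8.47, so that the difference of -0.22 became 1.79 without the second DTIC array. Sesn2, a stress-induced sestrin, was 10.51 and 7.55 against 7.18, 7.22, 7.31 and 6.54, while Trp53inp1, a p53 target that favours cell death, was 8.82 and 5.65 against 9.42, 8.52, 9.62 and 9.44. The differences were -1.97 (SE 0.87) and 2.02 (SE 0.88), and in both genes the DTIC arrays lay further from each other than the SQ-diEG arrays did. Injected water had 8.10 and 8.58 for Sesn2, above all SQ-diEG arrays, and 8.47 and 7.92 for Trp53inp1, below all of them.

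The 23 tested apoptosis genes were 8 higher and 15 lower, with a median of -0.23 that ran from -0.452 to 0.0898 over the settings. An unadjusted p under 0.05 was found for 5 of them, 2 higher and 3 lower (beside 4.71% of all genes). The lists were chosen with earlier results of these data known, so nothing is read from that count. Xiap, an inhibitor of caspases, was 10.47 and 8.79 with DTIC against 7.45, 6.72, 6.57 and 7.33 with SQ-diEG, a difference of -2.62 (SE 0.85, limma adjusted p = 0.996). Diablo, a mitochondrial protein that binds and blocks Xiap, differed in the same direction by -2.37 (SE 0.85), and Htra2, another such protein, by 1.83 (SE 0.84). An inhibitor and an antagonist of it thus both lay lower with SQ-diEG, and neither passed the test.

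Genes of cell division were 16 higher and 16 lower out of 32 tested, with a median of 0.0057. Mki67, the Ki-67 antigen of dividing cells, was 10.09 and 7.26 with DTIC and 7.46, 6.59, 9.48 and 9.51 with SQ-diEG, with overlap, and its difference of -0.41 became 1.00 without the first DTIC array. Bub1b, a kinase of the spindle checkpoint, was 8.96 and 9.87 against 7.09, 6.50, 7.27 and 8.14, a difference of -2.17. Hmmr, a spindle and hyaluronan-binding protein, was 6.01 and 6.05 against 8.29, 7.06, 7.95 and 8.71, a difference of 1.97. Injected water had 9.16 and 8.54 for Bub1b, above all SQ-diEG arrays, and 8.08 and 7.97 for Hmmr, within their range. Genes that act at the same spindle thus lay on opposite sides of 0, and neither passed the test.

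Pigment genes, the marks of the injected cells, gave 11 higher and 10 lower of 21 tested, a median of 0.03 and 0 at an unadjusted p under 0.05. Pmel, the fibril protein of melanosomes, was 6.89 and 8.42 with DTIC and 8.32, 7.79, 8.97 and 6.91 with SQ-diEG, a difference of 0.34 (SE 0.86, 95% interval -1.39 to 2.08). Tyrosinase (Tyr), Dct and Mlana differed by -0.44, -0.40 and 0.25, and Tyrp1 by 1.04, with 1 low-dose array at 9.88 and the others between 5.83 and 7.53. Without the first DTIC array Pmel differed by -0.42, and without the first high-dose array Tyr differed by 0.43. These values were all at background level, so tumour load could not be compared between the regimens.

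**Figure D4:**
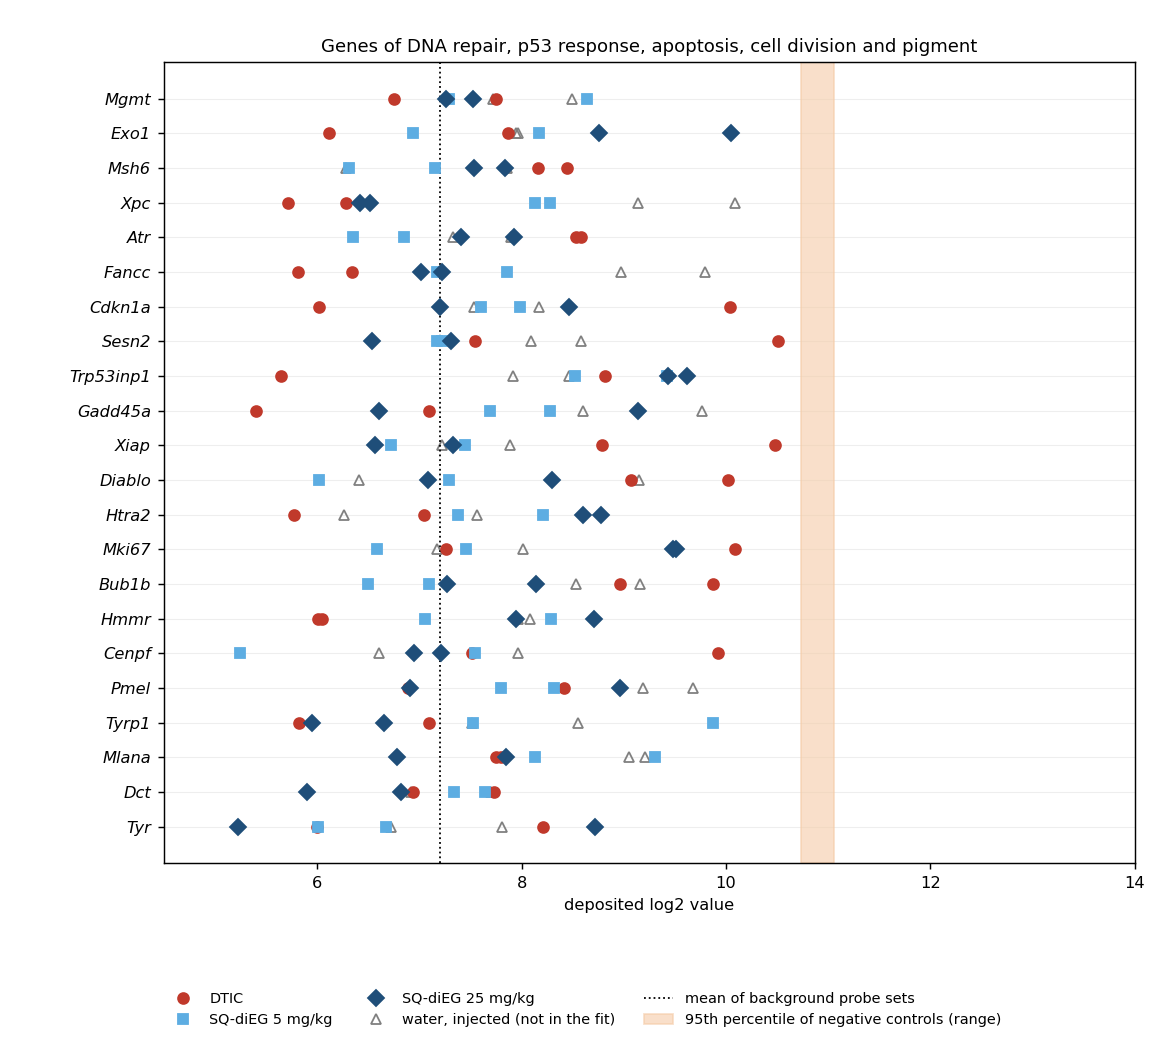
Deposited log2 value (horizontal axis) on each array for genes of DNA repair, the p53 response, apoptosis, cell division and pigment, with DTIC as circles, SQ-diEG as squares (5 mg/kg) and diamonds (25 mg/kg) and injected water as open triangles. None of these genes reaches the negative-control band of 10.73 to 11.05, and Cdkn1a shows the DTIC arrays at 6.02 and 10.04 on either side of the 4 SQ-diEG arrays.

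Immune lists were mixed as well. Of 25 tested interferon-stimulated genes, 7 were higher and 18 lower with SQ-diEG, with a median of -0.56 and medians of -0.60 and -0.54 for the low and the high dose, which share the DTIC arrays. Only 1 had an unadjusted p under 0.05, Oasl1, an oligoadenylate synthetase-like protein, at 10.13 and 8.19 with DTIC against 8.03, 6.29, 5.88 and 7.68 with SQ-diEG. Ifih1, the RNA sensor Mda5, was 8.02 and 7.84 against 6.49, 6.80, 5.52 and 6.22, a difference of -1.67, with injected water at 6.08 and 6.30.

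Class I antigen presentation gave 11 higher and 9 lower of 20, with a median of 0.13. Psmb10, a subunit of the immunoproteasome, differed by -1.90 and the class I heavy chain H2-K1 by 1.45. Injected water had 6.54 and 8.22 for Psmb10, and 7.24 and 8.05 for H2-K1, below all SQ-diEG arrays. T and NK cell genes gave 12 and 11 of 23, with the T cell surface receptor Cd6 at 1.96 and the co-receptor Cd8a at -1.43. Markers of one lineage thus lay on opposite sides of 0.

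Macrophage and dendritic cell genes were 18 higher and 8 lower of 26, with a median of 0.28. An unadjusted p under 0.05 was found for 3 of them, 2 higher and 1 lower (beside 4.71% of all genes). Flt3, the growth factor receptor of dendritic cell precursors, was 5.28 and 5.52 with DTIC against 7.64, 6.45, 8.20 and 7.88 with SQ-diEG, a difference of 2.14 (SE 0.84). C1qa, a complement chain made by macrophages, was 8.59 and 10.55 against 7.96, 7.73, 6.38 and 7.76, a difference of -2.12 (SE 0.86). Neutrophil genes were 10 higher and 13 lower of 23 with a median of -0.21, and B and plasma cell genes 11 higher and 8 lower of 19 with a median of 0.11.

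Among 30 tested chemokines and cytokines, 14 were higher and 16 lower, with a median of -0.11. Ccl20, which attracts cells bearing Ccr6, was 8.82 and 8.54 with DTIC against 6.18, 5.95, 6.09 and 7.52 with SQ-diEG, a difference of -2.24. Cxcl13, which attracts B cells, was 6.44 and 6.17 against 8.71, 8.54, 7.06 and 9.88, a difference of 2.24. Both groups of arrays stood apart in both genes, in opposite directions.

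Of the lung lists, airway epithelium had the highest median of all lists, 0.57, with 11 higher and 4 lower of 15 tested and medians of 0.78 and 0.45 for the low and the high dose. Scgb1a1, the secretoglobin of club cells, was 5.28 and 6.85 with DTIC against 7.25, 9.47, 8.45 and 8.81 with SQ-diEG, a difference of 2.43 (SE 0.86, limma adjusted p = 0.996), with injected water at 7.73 and 8.78. Trp63, the p63 regulator of basal cells, was 6.24 and 6.36 against 9.15, 9.10, 7.24 and 7.79, a difference of 2.02. Of the airway genes, 4 had SQ-diEG arrays all above both DTIC arrays (beside 6.49% of all genes) and 0 all below (beside 6.7%), and for both the interferon and the invasion list these counts were 0 and 4.

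Alveolar genes were 14 higher and 7 lower of 21, with a median of 0.37. Sftpc, the surfactant protein of type II cells, was 6.65 and 7.12 with DTIC and 7.09, 8.29, 9.44 and 8.77 with SQ-diEG, overlapping at 1 array, with a difference of 1.51 (SE 0.84). Other type II cell genes were mixed. The surfactant gene Sftpa1 differed by 0.58, Sftpb by -1.02 and the protease Napsa by -1.56, or for Napsa 0.11 without the second DTIC array. Endothelial genes were 11 higher and 13 lower of 24 with a median of -0.14. Pgf, placental growth factor, was 6.15 and 6.26 against 7.60, 7.31, 8.97 and 10.29, a difference of 2.34. The lymphatic growth factor Vegfc, at 8.93 and 8.20 against 6.38, 6.11, 8.21 and 6.86, differed by -1.68.

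Fibroblast and matrix genes were 9 higher and 13 lower of 22 with a median of -0.24. Tenascin C (Tnc) differed by 2.15 and the collagen chain gene Col5a1, at 10.38 and 8.98 with DTIC against 8.11, 8.20, 7.16 and 6.66, by -2.15. Genes of invasion were 9 higher and 15 lower of 24 with a median of -0.29, among them E-cadherin (Cdh1) at -2.08 and the urokinase gene Plau at -1.92. Cdh1 holds epithelial cells together and Plau helps to dissolve matrix, and both lay lower with SQ-diEG on all 4 arrays.

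Lists of growth signals and stress showed the same scatter. Immediate early genes had the lowest median of all lists, -0.60, with 8 higher and 12 lower of 20 and 0 at an unadjusted p under 0.05, and within it Fos differed by -1.48 and Egr2 by 1.43. MAPK and PI3-kinase genes were 14 higher and 9 lower of 23 with a median of 0.38, and Nras differed by 2.08, beside Pik3cb at -3.27. Genes of the unfolded protein response and heat shock were 8 higher and 13 lower of 21 with a median of -0.13, and the endoplasmic reticulum chaperone Hyou1 differed by -2.30 and the stress kinase Eif2ak3 by 1.505.

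In metabolism, the cholesterol list had 10 higher and 6 lower members of 16 with a median of 0.43. Sqle, squalene epoxidase, differed by 0.08 (SE 0.84, 95% interval -1.60 to 1.77), or -0.28 without the second DTIC array, and Insig1, the sterol-regulated brake on that pathway, was 8.23 and 8.40 with DTIC against 6.36, 6.40, 6.43 and 6.83 with SQ-diEG, a difference of -1.81. Antioxidant genes were 14 higher and 11 lower of 25 with a median of 0.36, with Gpx4, which clears lipid peroxides, at 1.74. Oxidative phosphorylation genes were 16 higher and 17 lower of 33 with a median of -0.0035, which was 0.0286 after quantile normalization and 0.0213 after median centring.

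Ribosomal protein genes were 32 higher and 22 lower of 54, with a median of 0.15, and 5 had all SQ-diEG arrays above both DTIC arrays (beside 6.49% of all genes) against 0 all below (beside 6.7%). Rplp0, the stalk protein of the large subunit, was 6.91 and 6.88 with DTIC against 8.63, 8.63, 8.86 and 9.38 with SQ-diEG, a difference of 1.98 (SE 0.83), and injected water had 8.66 and 9.46. Erythroid and platelet genes were 6 higher and 4 lower of 10 with a median of 0.13. No list was tested as a set, and the list medians are descriptions without an error of their own.

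**Figure D5:**
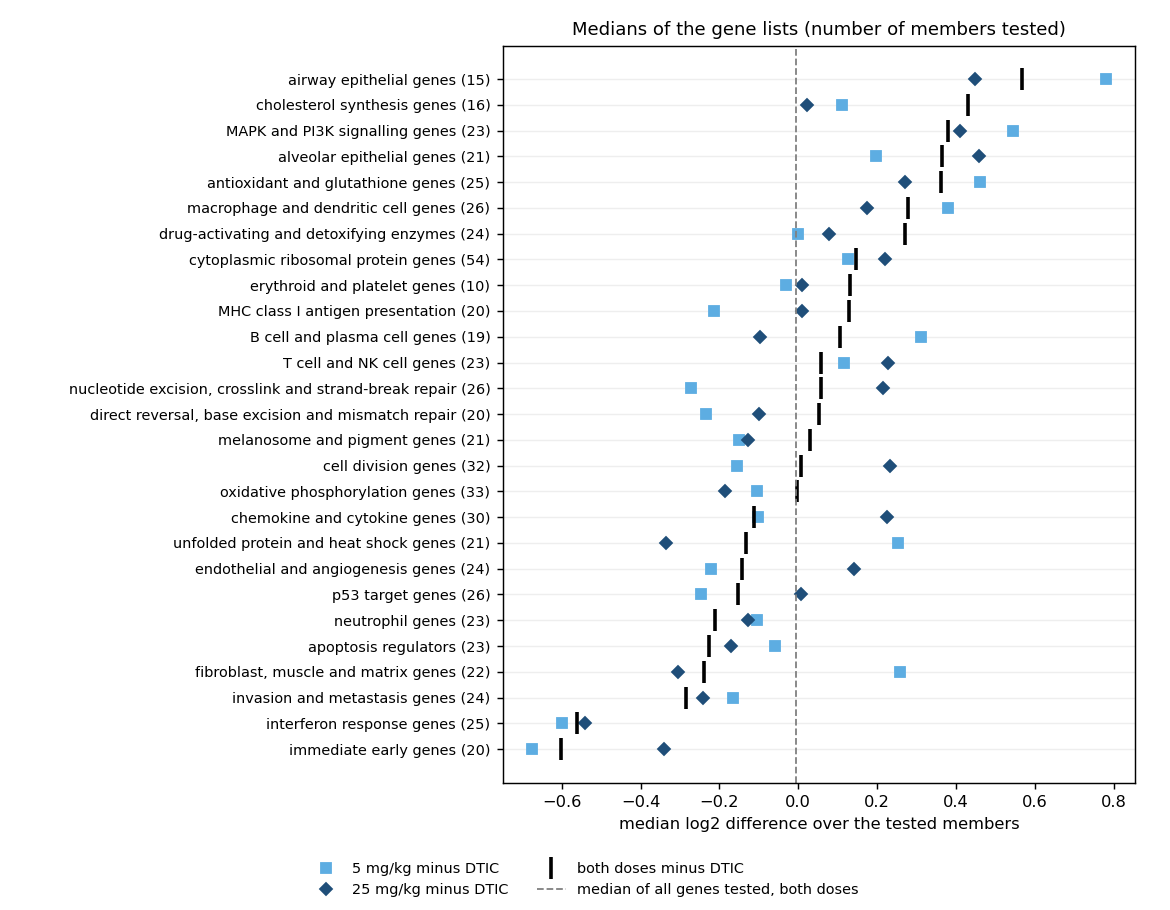
Median log2 difference between SQ-diEG and DTIC (horizontal axis) over the tested members of each list (vertical axis, with the number tested), for both doses together and for each dose, with a dashed line at the median of all genes. The medians for both doses run from -0.60 (immediate early genes) to 0.57 (airway epithelium), and 16 of the 27 measured lists lie above 0.

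Set singly against DTIC, neither dose had a gene that passed the test. At 5 mg/kg, 0 genes (0%) were called by limma with Benjamini-Hochberg adjustment, the smallest adjusted p was 0.994, and 782 genes (4.5%) had an unadjusted p under 0.05. At 25 mg/kg, 0 (0%) were called, the smallest adjusted p was 0.439, and 880 (5.06%) had an unadjusted p under 0.05. Both contrasts use the same DTIC arrays, and the median half-width of a single-dose 95% interval was 1.98.

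At the low dose the ranking was led by Uba6, an enzyme that activates ubiquitin, at a difference of 3.78, Clec4a1 at 3.77 and Sarm1, an NAD-cleaving enzyme of axon loss, at 3.43. In the other direction stood Zfp987 and Khdrbs2, an RNA-binding protein, each at -3.92, and Olfr194 at -3.83. At the high dose the leading genes were Nfyc at 4.40, the orphan receptor Gpr37 at 4.30 and the class I pseudogene H2-T-ps at 3.90, with Olfr830 at -4.37, the cornified envelope gene Sprr2k at -4.07 and Spata31 at -3.75 in the other direction. No gene stood among the leading 6 of both doses. Adjusted p ran from 0.439 to 0.959 at the high dose and was 0.994 for each of the 6 at the low dose.

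The doses of SQ-diEG were then set against each other, a contrast in which the DTIC mean cancels. Again 0 genes (0%) were called by limma, the smallest adjusted p was 0.936, and 866 (4.98%) had an unadjusted p under 0.05, 482 higher and 384 lower at 25 mg/kg. The ranking held Pip4k2b, a phosphoinositide kinase, at 3.98 (SE 1.01), the cornified envelope gene Lce1k at 3.88 (SE 0.99) and the B cell scaffold Bank1 at 3.70 (SE 0.96). Lower at 25 mg/kg were Faf1, a Fas-associated factor, at -3.65 (SE 1.01), Sdhaf1, an assembly factor of succinate dehydrogenase, at -3.59 (SE 1.00) and Sprr2k at -3.57 (SE 0.99).

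Of 24 genes above the negative-control mark on at least 3 of the 6 arrays, 7 lie on the Y chromosome in NCBI's gene table: Sly, of a multicopy family known from the testis, and 6 gene models named only by number. They were noticed after their values were seen. Sly was 11.44 and 9.57 with DTIC, 8.43 and 9.61 with the low dose and 13.29 and 12.21 with the high dose of SQ-diEG, and 11.67 and 10.42 with injected water. The dose difference was 3.73 (SE 0.99, limma adjusted p = 0.936). In all 7 genes both high-dose arrays lay above both low-dose arrays, as they did in 7 of the other 17 genes above the mark on at least 3 arrays and in 17.7% of all tested genes. A gene could pass that mark through its high-dose arrays, so nothing is read from the count. The dose differences ran from 1.78 (Gm20854) to 3.73 (Sly). Against DTIC the pooled differences of the same genes ran from -1.50 (Gm20852) to 1.65 (Gm20747), since the DTIC arrays lay between the doses or overlapped them. Many genes of this chromosome exist as near-identical copies that can share labelled RNA, so the 7 values are uncertain singly and may not be 7 separate observations.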

How the data were processed

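Lung RNA was measured on Affymetrix arrays, 2 per group. The deposited log2 values, 1 per probe set and array, were made by the authors with Affymetrix Expression Console, Transcriptome Analysis Console and RMA, per the submitters' processing notes. No source used here gives their versions or settings. The number of arrays limits the precision. Of 28846 probe sets, 6640 were controls, 19572 had exactly 1 gene symbol, 0 had several and 2634 had none. All 19572 symbols were found in NCBI's gene table of GRCm38.p6, used for names and chromosomes only, since no source names the build used for the array.

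A gene was its probe set of highest mean over the 6 arrays, and it was tested where that probe set was at or over the 40th percentile of all non-control values of its array in 2 or more arrays, which removed 2113 of 19505 genes. The 3 group means were fitted with limma 3.58.1 (lmFit, eBayes) in R 4.3.3, tested on simulated data first, with 3 residual and 45 prior degrees of freedom and a typical SD of 0.989. Benjamini-Hochberg adjustment ran over all genes tested, with a threshold of 0.05. The pooled contrast weighted both doses equally. A level was called above background where it exceeded the 95th percentile of its array's negative-control probe sets.

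The members and lists were chosen with earlier results of these data known. Named were the 8 genes of smallest p in each direction of the pooled contrast, 3 in each direction for the other contrasts, the genes above background on all arrays, a fixed set (Pmel, Tyr, Tyrp1, Dct, Mlana, Mki67, Cdkn1a, Mgmt, Xpc, Sqle, Sftpc) and up to 3 members of each list by p. Clone-type names were left out, except the Y-linked gene models, which, like Hmgb1, Cbx3, Ptma, Ypel1 and Stac3, were chosen after their values were seen. Alternatives changed the normalization, filter, probe set rule, moderation, array weights, pooling, background mark and the arrays in the fit. The fit did not pair arrays by the replicate numbers in the titles, apart from an alternative with the replicate as a block. The differences between replicates 1 and 2 correlated between groups at a Pearson r across genes of 0.0066, 0.018 and 0.0013. Arrays of the same treatment themselves correlated only weakly, so these values cannot exclude pairing. The mean of the hybridization controls was higher on replicate 2 in each group of the fit. It was 9.22 and 10.28 with DTIC, 9.10 and 10.15 with the low dose and 10.27 and 10.92 with the high dose.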

Additional observations from a re-analysis of the deposited data

Results flagged for a closer look

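In 5 of the 120 genes named by rule, 1 of the 4 SQ-diEG arrays lay far from the other 3, by Dixon's ratio of the gap to the range against its 95% critical value, and chance alone marks about 1 in 20 such groups. The 4 arrays hold 2 doses, so an array can stand apart without being faulty. Rab27a, a GTPase of melanosome transport, was 7.39, 7.83, 7.43 and 7.43 (ratio 0.915, second low-dose array high). Fmo2, a flavin monooxygenase of the lung, was 8.44, 9.38, 8.32 and 8.37 (ratio 0.885, the same array high). Insig1 was 6.36, 6.40, 6.43 and 6.83 (ratio 0.854) and Ccl20 6.18, 5.95, 6.09 and 7.52 (ratio 0.849), both with the second high-dose array high. C1qa was 7.96, 7.73, 6.38 and 7.76 (ratio 0.852), with the first high-dose array low.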

How the results depend on the processing

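Under the 20 alternatives run for both doses against DTIC, and under the same ones for the other 3 contrasts except the fit of both doses as 1 group, limma (with and without moderation) called 0 genes. The smallest adjusted p over the settings was 0.055 for both doses against DTIC, 0.0943 and 0.0597 for the low and the high dose and 0.21 between doses, and unadjusted p under 0.05 was found for 605 to 923, 563 to 917, 679 to 982 and 658 to 951 genes. With the replicate block, 0 genes were called, and 871, 825, 919 and 918 had an unadjusted p under 0.05. Leaving out single arrays gave 3192 to 6539 genes without overlap, and leaving out the 2 arrays of lowest hybridization controls (the first DTIC and first low-dose array, a choice made after seeing the data) gave 7389 (50.3%), since fewer arrays overlap less often by construction. Genes above background on all arrays numbered 3 to 4 without single arrays, 6 without those 2 arrays, 6 at the 90th and 0 at the 99th percentile of the negative controls.

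Of 129 gene differences, 116 kept their sign under every alternative, and 13, all of the pooled contrast, did not. Most of the 129 were named for a small p on these same arrays, a choice that itself favours a stable sign. Some alternatives, such as those of moderation and of the background mark, leave a difference unchanged by construction. Nothing is therefore read from the count of 116, and the 13 are given next. With single arrays left out, the differences ran from -0.14 to 1.18 for Pold2, from -0.70 to 0.89 for Tchp, from -0.42 to 1.11 for Pmel, from -0.048 to 0.54 for Mlana, from -1.55 to 0.43 for Tyr, from -1.83 to 1.00 for Mki67, from -2.22 to 1.79 for Cdkn1a, from -0.071 to 0.93 for Mgmt, from -0.28 to 0.45 for Sqle, from -3.43 to 0.29 for Gpnmb, from -3.24 to 0.11 for Napsa, from -0.15 to 2.28 for Slc4a1 and from -0.20 to 2.65 for Cbx3. Without both arrays of lowest hybridization controls, Tchp was -0.77, Pmel -0.55, Mlana -0.073, Mki67 0.78, Slc4a1 -0.37 and Cbx3 -0.71. With these controls as a covariate, Tchp was -0.23 and Mki67 0.11. The cause of these turns was not tested. The median kept its sign throughout for 8 lists, among them airway epithelium (0.493 to 0.995), interferon-stimulated genes (-0.661 to -0.0456), immediate early genes (-0.64 to -0.0187) and ribosomal proteins (0.0096 to 0.335).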

Other observations

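The 2634 probe sets without a gene in the annotation took no part in the comparison above. In a limma fit over all 22206 non-control probe sets, 0 of them passed the Benjamini-Hochberg threshold. Their smallest adjusted p was 0.805, and 144 (5.47%) had an unadjusted p under 0.05. Of these 2634 probe sets, 44 exceeded the negative-control mark on all 6 arrays, beside 3 of the 19505 genes with a symbol.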
